A study of Mus musculus with 18 samples.

Results

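DMC1 hotspot usage in mice with a single intact copy of Prdm9 was compared with usage in C57BL/6J (B6) mice at 8744 autosomal sites. These were all listed DMC1 sites not on the X chromosome, of 9132 sites in the deposited DMC1 table; the 388 X sites were left out by the rule that chose the sites. DMC1 was measured by ChIP-seq in spermatocytes of 14-day-old mice. The B6 group (strain C57BL/6J) and the Prdm9 heterozygous group (Prdm9+/-, Prdm9 het) had 2 samples each. The labels give no background strain for Prdm9 het, and they name no deletion or treatment common to both groups. Ewsr1 CKO, which lacks EWSR1 in germ cells through Stra8-iCre, a Cre driven by a promoter that is active in premeiotic and early meiotic germ cells, served as a further group for DMC1, H3K4me3 and H3K36me3, again with 2 samples for each measurement. The table gives 1 value per site and group, so no value has a spread between animals and no difference below carries a p-value.

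PRDM9 is a zinc finger protein of early meiotic germ cells. It binds short DNA motifs and methylates histone H3 on lysine 4 and lysine 36 of nearby nucleosomes. DNA double strand breaks are then made at a subset of these sites by SPO11, and the resected single-stranded ends are coated by the meiotic recombinase DMC1, so DMC1 ChIP-seq maps where breaks were made and how long they persisted. Without PRDM9, mouse breaks move to promoters and other H3K4me3-marked elements. The comparison of Prdm9 het with B6 asks how a reduced PRDM9 dose is shared out among hotspots.

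Sequence was taken for sites that hold a whole annotated promoter window, since gene starts are where PRDM9-independent H3K4me3 is found. Windows of RefSeq promoters (build GRCm38.p6) lay wholly inside 118 of the 8415 sites on chromosomes that the promoter table covers. The following 4 are the 250 bases before the annotated start, 5′ to 3′ on the gene's strand, with CG dinucleotides in capitals. They were chosen after the values were seen: the strongest such site in B6, the one with the highest and the one with the lowest ratio of Prdm9 het to B6, and the strongest at a named protein-coding gene.
Gm31195, chr1:13846250-13846499, plus strand: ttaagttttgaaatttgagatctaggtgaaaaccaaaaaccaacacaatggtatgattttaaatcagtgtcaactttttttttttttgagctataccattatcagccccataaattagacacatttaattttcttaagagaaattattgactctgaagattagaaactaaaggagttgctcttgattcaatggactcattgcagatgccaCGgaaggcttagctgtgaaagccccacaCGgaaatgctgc
Gm34557, chr13:53935284-53935533, minus strand: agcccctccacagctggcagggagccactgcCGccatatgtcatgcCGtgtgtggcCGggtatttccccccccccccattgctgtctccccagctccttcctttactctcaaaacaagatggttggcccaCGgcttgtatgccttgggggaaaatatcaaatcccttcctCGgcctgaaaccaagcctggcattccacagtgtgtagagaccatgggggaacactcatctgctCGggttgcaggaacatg
Gm31577, chr14:15321884-15322133, minus strand: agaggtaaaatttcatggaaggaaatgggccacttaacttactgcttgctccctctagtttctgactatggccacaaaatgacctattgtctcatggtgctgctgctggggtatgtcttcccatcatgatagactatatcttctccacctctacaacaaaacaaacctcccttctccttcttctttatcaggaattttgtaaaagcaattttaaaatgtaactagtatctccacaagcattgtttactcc
Fabp7, chr10:57784673-57784922, plus strand: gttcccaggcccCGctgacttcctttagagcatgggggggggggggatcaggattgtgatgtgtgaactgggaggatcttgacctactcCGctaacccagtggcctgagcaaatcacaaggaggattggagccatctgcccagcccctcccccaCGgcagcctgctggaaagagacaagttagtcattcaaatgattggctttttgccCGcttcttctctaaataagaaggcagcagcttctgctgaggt

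DMC1 over the Gm31195 start, in reads per 1000000 (RPM), was 379 (B6), 62.4 (Prdm9 het) and 427 (Ewsr1 CKO). The site over Gm34557, whose window has 6 CG dinucleotides and a GC content of 57.2%, had RPM values of 19.9 (B6), 19.5 (Prdm9 het) and 18.2 (Ewsr1 CKO), so it alone of the 4 was about as high in Prdm9 het as in B6 despite the lower total of the Prdm9 het column. The site over Gm31577, whose window has 0 CG dinucleotides, had RPM values of 29.2 (B6), 30.9 (Ewsr1 CKO) and 0.370 (Prdm9 het); it lies in a segment of chromosome 14 where most sites were low. The site over Fabp7, which encodes a fatty acid binding protein of radial glia and astrocytes, had RPM values of 201 (B6), 39.5 (Prdm9 het) and 158 (Ewsr1 CKO). Across the 118 sites the window held a median of 3 CG dinucleotides, against 6 over all 32851 RefSeq windows, and CG content followed H3K4me3 in Ewsr1 CKO (Spearman's rho 0.54 across the 118 sites, which share the same libraries) more closely than the ratio of Prdm9 het to B6 (rho 0.12).

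The B6, Prdm9 het and Ewsr1 CKO columns had autosomal sums of 713518, 136064 and 765437 RPM. The Prdm9 het sum was thus 5.24-fold below that of B6. What the RPM values were scaled to is not given in the sources used here, so this difference was not read as one of break number, and each column was divided by its own autosomal sum. The share of a site is given below in parts per 1000000 of that sum (ppm), with a mean of 114 ppm per site in every column, and ratios are log2((Prdm9 het share + 1)/(B6 share + 1)).

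At most hotspots the share with a single Prdm9 copy was close to that in B6. The median log2 share ratio was −0.03 (95% order-statistic interval across sites −0.05 to −0.02, which treats sites as independent), with quartiles of −0.37 and 0.30, and 8063 of the 8744 sites (92.2%) lay within 2-fold of their B6 share. The share was at least 2-fold higher in Prdm9 het at 200 sites (2.29% of all sites) and at least 2-fold lower at 481 sites (5.5%). Without sites whose mean share was under its lower quartile these counts were 181 and 191, and with a pseudocount of 10 ppm they were 139 and 230, so the excess of lower over higher sites depends on these settings. Past 4-fold there were 16 sites higher (0.183%) and 142 lower (1.62%). Ewsr1 CKO over B6, computed in the same way and sharing the B6 column, had 292 sites at least 2-fold higher (3.34%), 58 lower (0.663%) and 3 at least 4-fold lower (0.0343%). The order of hotspots was much the same, with a Spearman's rho of 0.91 between the B6 and Prdm9 het shares across sites, which share their libraries, and the slope of log2 Prdm9 het share on log2 B6 share was 1.00.

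**Figure D1:**
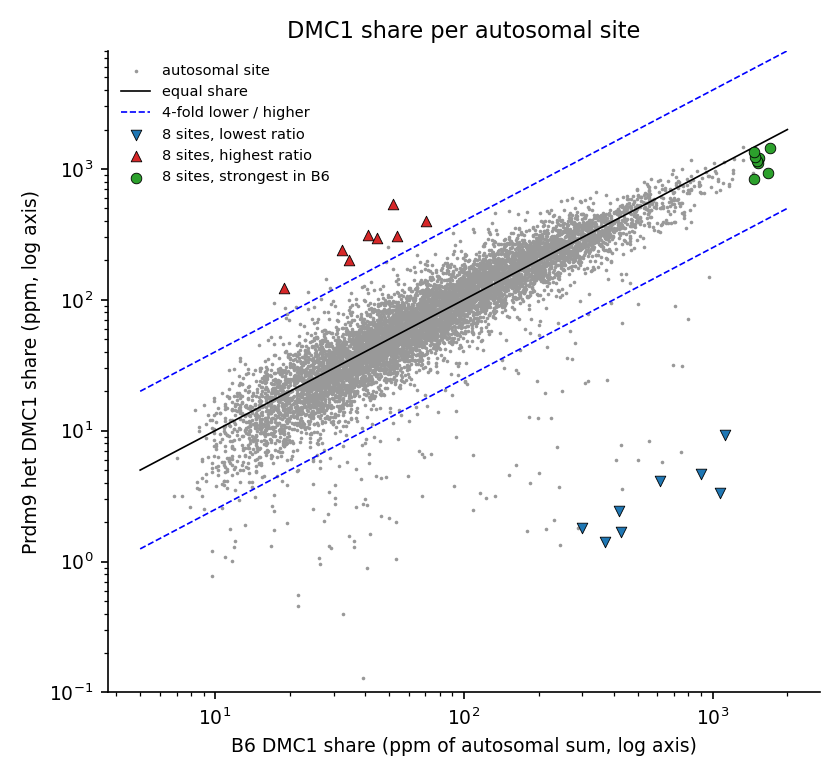
DMC1 share of each autosomal site in B6 (x axis, ppm, log scale) and Prdm9 het (y axis, ppm, log scale), 1 point per site; the solid line marks equal shares, the dashed lines 4-fold differences, and coloured symbols the 8 sites with the lowest ratio, the highest ratio and the highest B6 share. The cloud follows the line of equal shares, and the 142 sites at least 4-fold lower spread far below it over the whole range of B6 strength (the site listed at 0 in Prdm9 het cannot be drawn).

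The concentration of DMC1 signal on strong hotspots was close in the 2 columns. The strongest 10% of sites of each column held 38.6% of the autosomal sum in B6, 37.3% in Prdm9 het and 35.3% in Ewsr1 CKO. Of all sites, 1378 sufficed for 50% of the sum in B6, 1408 in Prdm9 het and 1567 in Ewsr1 CKO. The Gini coefficient, which is 0 for an even spread and 1 for a single site, was 0.521, 0.531 and 0.483. With each column ranked by its own values, Prdm9 het differed from B6 at both ends of the range. Its top 1% of sites held less (7.42% against 8.40%) and its weaker 50% of sites also held less (14.2% against 15.6%). These are not all the same sites in each column. In Ewsr1 CKO the weaker 50% held more, 17.7%.

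The identity of the strong hotspots was largely shared. Of the 874 strongest sites in B6, 666 (76.2%) were also among the 874 strongest in Prdm9 het, and of the top 100 in B6, 68 were in the top 100 of Prdm9 het. The 874 strongest B6 sites held 38.6% of the B6 sum, 34.6% of the Prdm9 het sum and 33.7% of the Ewsr1 CKO sum. The strongest autosomal site in B6, at chr1:68487445-68490678 within the span of Erbb4, a receptor tyrosine kinase gene, had 1213 RPM or 1701 ppm (B6), 198 RPM or 1458 ppm (Prdm9 het) and 1086 RPM or 1419 ppm (Ewsr1 CKO), and ranked 1, 2 and 1 in the 3 columns. The site at chr10:92679224-92682555, outside any annotated gene span, ranked 7 in B6 and 3 in Prdm9 het, with 1468 and 1355 ppm. The site at chr12:4972671-4976035 in Atad2b, a gene for a bromodomain protein, ranked 2 in B6 with 1673 ppm and 22 in Prdm9 het with 932 ppm. At chr8:41325225-41328442 in Pcm1, which encodes a protein of centriolar satellites, the share was 1463 ppm in B6 and 833 ppm in Prdm9 het. All 8 of the strongest B6 sites had a lower share in Prdm9 het, with log2 ratios from −0.84 to −0.11; since they were picked for a high B6 value, which is also the denominator, this direction is a description. The other 4 of them lay in the spans of Gabrb1, Braf, Ankfn1 and Hdac9, with log2 ratios of −0.33, −0.45, −0.40 and −0.27.

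From the side of Prdm9 het, the strongest autosomal site was at chr2:38136006-38139189 in Dennd1a, a gene for a clathrin-associated trafficking protein. Its B6 value was 949 RPM (1330 ppm, rank 11), its Prdm9 het value 200.3 RPM (1472 ppm) and its Ewsr1 CKO value 619 RPM (808 ppm, rank 38). A site at chr8:36569347-36572540 in Dlc1 ranked 54 in B6 (816 ppm) and 7 in Prdm9 het (1164 ppm). Sites at chr2:98106987-98109737 and chr1:67960819-67963799, both outside annotated gene spans, ranked 13 and 12 in B6 and 6 and 8 in Prdm9 het.

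Shares in Prdm9 het were highest, relative to B6, in the upper middle of the strength range when all sites were kept. When sites were put in 10 equal groups by B6 DMC1, the median log2 ratio was −0.20 in the weakest group (B6 median 16.4 ppm), 0.07 in group 8 (138 ppm) and −0.12 in the strongest group (365 ppm). The order of the weakest group and group 8 turned round, with medians of 0.33 and 0.09, when sites with a mean share under its lower quartile were left out, a filter that keeps weak B6 sites only where Prdm9 het is high. In shares of the whole, groups 2 and 4 to 9 each held more in Prdm9 het than in B6, for example 13.6% against 12.2% in group 8, while the strongest group held 34.6% against 38.7%. The spread of ratios narrowed with strength, with an interquartile range of 0.90 in the weakest group and 0.52 in the strongest. In the strongest group 1 of 875 sites (0.114%) was at least 2-fold higher, against 2.29% of all sites. At least 2-fold lower were 45 (5.14%), close to the 5.5% of all sites. Ewsr1 CKO over B6 ran downwards throughout, from 0.28 in the weakest to −0.23 in the strongest group. Both comparisons share the B6 column, which also sets the ranking here.

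Ranking by B6 ties the ranking to the denominator, so sites were also ranked by Ewsr1 CKO DMC1, a column that enters neither side of the ratio. The weakest group then had a median of −0.36, the seventh 0.09 and the strongest −0.07. Ewsr1 CKO over B6 had a median of −0.05 in that weakest group, below 0 where the B6 ranking put it above. The weakest group thus lay lower with this ranking, and the strongest group nearer 0. With Ewsr1 CKO as the denominator, Prdm9 het was at least 2-fold higher at 259 sites (2.96%) and lower at 769 (8.79%), and at least 4-fold higher at 21 (0.24%) and lower at 156 (1.78%). In this comparison, ranked by B6, the Prdm9 het share had a median log2 ratio of −0.49 in the weakest group and 0.04 in the strongest.

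**Figure D2:**
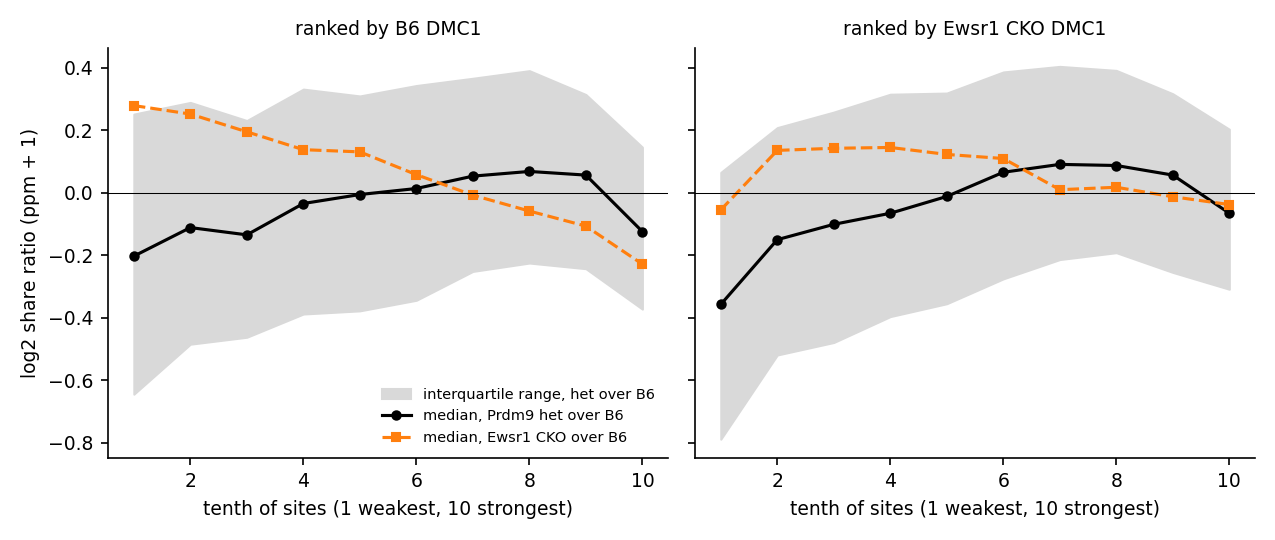
Log2 share ratio (y axis) in 10 equal groups of autosomal sites (x axis, 1 weakest to 10 strongest), ranked by B6 DMC1 on the left and by Ewsr1 CKO DMC1 on the right; black points are medians of Prdm9 het over B6, grey bands their interquartile range, orange squares medians of Ewsr1 CKO over B6. Black medians run from −0.20 through 0.07 to −0.12 on the left, and run from −0.36 through 0.09 to −0.07 on the right.

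Sites with more H3K4me3 in Ewsr1 CKO had a higher share in Prdm9 het. H3K4me3 at a hotspot is the mark PRDM9 leaves, and here it comes from Ewsr1 CKO and not from Prdm9 het or B6. Over 10 equal groups by H3K4me3, the median log2 ratio was higher at every step, from −0.25 in the lowest (median 0.329 RPM of H3K4me3) to 0.27 in the highest (2.66 RPM). Prdm9 het DMC1 was at least 2-fold higher at 83 of 875 sites (9.49%) in the highest group and at 7 (0.8%) in the lowest, against 2.29% of all sites. At least 2-fold lower were 40 sites (4.57%) in the highest and 91 (10.4%) in the lowest, against 5.5% of all sites. The highest group held 22.3% of the Prdm9 het sum, 20.8% of the B6 sum and 16.9% of the Ewsr1 CKO sum. Spearman's rho of H3K4me3 with the ratio was 0.28 across the 8744 sites.

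The same order was seen among sites of like B6 strength. H3K4me3 and B6 DMC1 were correlated across sites (rho 0.49), so each of the 10 groups by B6 DMC1 was divided in 3 by H3K4me3. In all 10 the sites richest in H3K4me3 had a higher median ratio than the poorest, by 0.16 in the strongest group and by 0.26 to 0.42 in the others. Put together over strength, the sites poorest in H3K4me3 had a median of −0.16 and those richest 0.16, at equal B6 medians of 66.2 and 66.4 ppm. The sites richest in H3K4me3 held 38.9% of the Prdm9 het sum against 35.5% of the B6 sum. With Ewsr1 CKO DMC1 in place of B6 as the denominator, the difference between the highest and lowest of the 10 H3K4me3 groups was 0.96, against 0.53 over B6. In Ewsr1 CKO over B6 the order was opposite, with medians of 0.22 in the lowest and −0.20 in the highest H3K4me3 group.

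**Figure D3:**
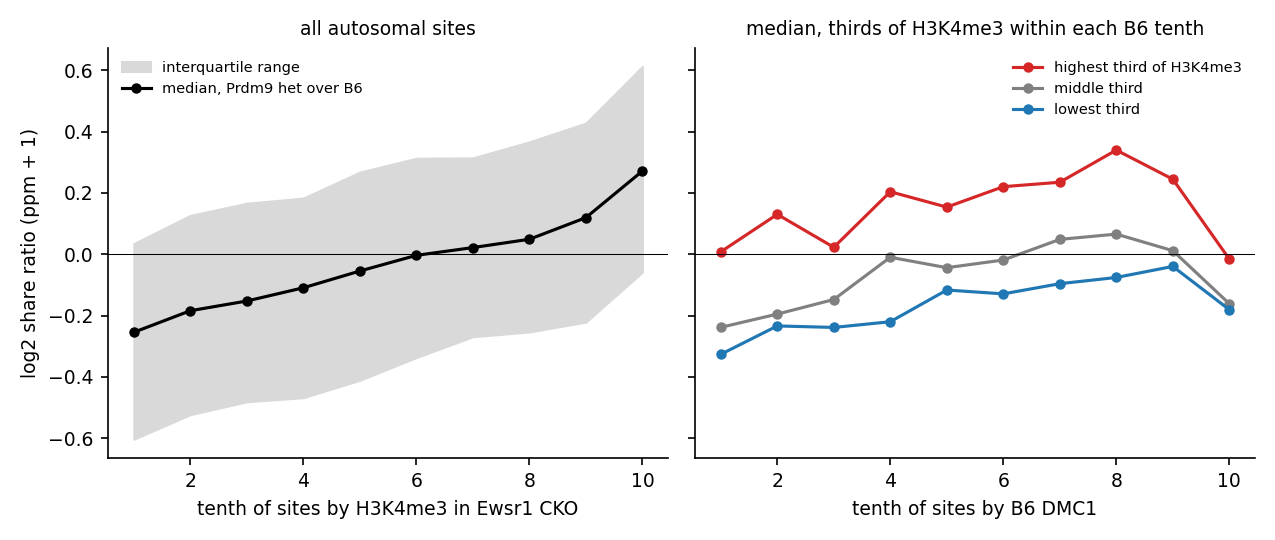
Left, median (points) and interquartile range (band) of the log2 share ratio of Prdm9 het over B6 in 10 equal groups of sites by H3K4me3 in Ewsr1 CKO (x axis). Right, medians of sites with high, middle and low H3K4me3 within each of 10 groups by B6 DMC1 (x axis): medians rise from −0.25 to 0.27 on the left, and the high line lies above the low line in all 10 groups on the right.

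The ratio over B6 did not follow H3K36me3, the other mark PRDM9 places, in this way. A value was at hand for the 4890 sites (55.9%) that overlapped a listed H3K4me3 interval. These sites held 72.8% of the B6 sum and 74.5% of the Prdm9 het sum and had a median log2 ratio of 0.08, against −0.17 at the other 3854. Among them the median ratio was 0.04 in the lowest of 10 groups by H3K36me3, 0.17 in the fifth and −0.07 in the highest. The B6 median was 43.3 ppm in the lowest group and 209 ppm in the highest. With Ewsr1 CKO DMC1 as the denominator, the median rose from −0.10 in the lowest group to 0.23 in the highest, the same direction as for H3K4me3. Ewsr1 CKO over B6 had medians of 0.14 and −0.31 in these 2 groups. Within each of 10 groups of like H3K4me3, the ratio over B6 was lower where H3K36me3 was higher, with a rho from −0.37 to −0.08. These groups were not matched for B6 DMC1, the denominator of the ratio. Both marks come from Ewsr1 CKO alone.

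Distance to a gene start made little difference to the ratio over B6. Of the 8415 sites on chromosomes covered by the RefSeq promoter table, 139 held a gene start and had a median log2 ratio of 0.06 (95% interval −0.10 to 0.18), with H3K4me3 of 1.26 RPM. The 1206 sites over 200 kb from a start had a median of 0.03 and H3K4me3 of 0.687 RPM, and all groups between lay at −0.07 to −0.02. In the highest H3K4me3 group, the 115 sites within 2 kb of a start had a median of 0.38 and the 751 farther away 0.25, so a high ratio was also present away from gene starts. With Ewsr1 CKO DMC1 as the denominator, the median was 0.01 at the 139 sites holding a start and −0.37 at the 1206 over 200 kb away. Ewsr1 CKO over B6 had medians of −0.002 and 0.37 at these sites.

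A small set of sites lay far below their B6 share in Prdm9 het. The 142 sites at least 4-fold lower had a median share of 68.1 ppm in B6, 79.1 ppm in Ewsr1 CKO and 4.64 ppm in Prdm9 het. Their number was 76 with a pseudocount of 10 ppm and 77 without sites whose mean share was under its lower quartile. All 142 were within 2-fold of B6 in Ewsr1 CKO, as were 8394 of all 8744 sites. Their median H3K4me3 in Ewsr1 CKO was 0.848 RPM, close to the 0.879 RPM of all sites, and 34 of them (23.9%) were in the highest H3K4me3 group, which holds 10% of sites. They occurred at every strength, with 31 in the strongest of the 10 B6 groups and 15 in the weakest.

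The lowest ratio was at chr9:83859376-83862215 in Ttk, a gene for a kinase of the spindle checkpoint. The B6, Ewsr1 CKO and Prdm9 het values there were 766, 674 and 0.454 RPM, and the site ranked 22 in B6 and 8681 in Prdm9 het (log2 share ratio −7.95). At chr8:32248524-32251667 in Nrg1, which encodes the ERBB ligand neuregulin, the same 3 values were 800.0, 534 and 1.25 RPM (−6.78). A pair of sites in Fat4, a gene for an atypical cadherin, lay at chr3:38903651-38906584 and chr3:38955146-38957986. For the first these values were 640.1, 590.0 and 0.638 RPM (−7.30), and for the second 439.6, 427 and 0.566 RPM (−6.90). A neighbour of theirs at chr3:38116868-38119524, outside annotated gene spans, followed with 264, 218 and 0.191 RPM (−7.27). The remaining 3 of the 8 lowest, at chr9:104455112-104458095, chr14:46501833-46504509 and chr9:15690773-15693390, were also outside gene spans and had ratios of −7.32, −6.94 and −6.74. H3K4me3 in Ewsr1 CKO at these 8 sites was 1.88 to 5.29 RPM. All 8 were in the strongest of the 10 B6 groups, whose median H3K4me3 was 1.57 RPM, and the rule that named them favours a high B6 value. A single autosomal site was listed at 0 in Prdm9 het, at chr3:33284688-33287233, where B6 stood at 43.3 RPM and Ewsr1 CKO at 38.3 RPM.

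Sites well above their B6 share were fewer. A high ratio favours a low B6 value, since B6 is the denominator. Of the 200 at least 2-fold higher, 27 were in the weakest B6 group, 23 in group 8 and 1 in the strongest. The 200 sites at least 2-fold higher had a median of 49.7 ppm in B6, 68.3 ppm in Ewsr1 CKO and 129 ppm in Prdm9 het, and a median H3K4me3 of 1.71 RPM. Of them 83 (41.5%) were in the highest H3K4me3 group, which holds 10% of sites. The highest ratio was at chr14:68389775-68391901, outside annotated gene spans, where the B6, Ewsr1 CKO and Prdm9 het values were 36.9, 54.5 and 73.6 RPM (log2 share ratio 3.36); its rank was 5174 in B6 and 157 in Prdm9 het. At chr15:6734738-6737336 in Rictor, which encodes an mTORC2 subunit, the B6 value was 29.5 RPM and the Prdm9 het value 42.8 RPM (2.90). Sites in Supt3 (chr17:44998983-45001157), Bmp5 (chr9:75885005-75887808) and Birc6 (chr17:74541072-74543734) had ratios of 2.86, 2.71 and 2.49. The site in Garnl3 (chr2:33054183-33056319) was the weakest of the 8 in B6, at 13.5 RPM, and the only one at least 2-fold higher in Ewsr1 CKO too (38.5 RPM). Sites at chr3:47831243-47833501 and chr14:111481282-111483998 had ratios of 2.53 and 2.49. H3K4me3 was 0.297 to 0.961 RPM at 7 of these 8 and 3.00 RPM at the Garnl3 site. Of all 16 sites at least 4-fold higher, 5 (31.25%) were in that highest H3K4me3 group. The median H3K4me3 of the 16 was 0.994 RPM, against 0.879 RPM over all sites.

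The lowest ratios were unevenly spread over the autosomes. Against 1.62% of all sites, those at least 4-fold lower were 52 of 415 on chromosome 14, 23 of 462 on chromosome 9 and 20 of 461 on chromosome 8. Chromosome 3 had 11 of 505 and chromosome 17 had 5 of 251, nearer the share over all sites, and chromosomes 1, 10, 11, 13 and 19 had 0. Chromosome 14 had the lowest median log2 ratio of the 19 autosomes, −0.42 (interval −0.51 to −0.34), and held 3.49% of the Prdm9 het sum against 4.49% in B6 and 4.45% in Ewsr1 CKO. The other autosomes had medians from −0.18 on chromosome 4 to 0.15 on chromosome 15. In Ewsr1 CKO over B6 the 19 medians lay between 0.01 and 0.20.

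**Figure D4:**
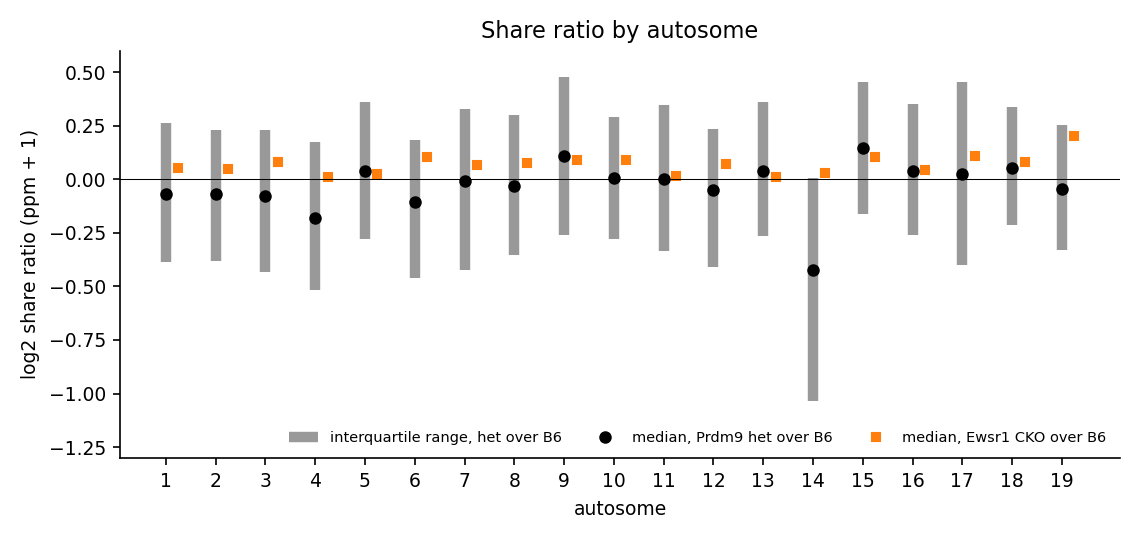
Log2 share ratio (y axis) by autosome (x axis): black points are medians of Prdm9 het over B6, grey bars their interquartile range and orange squares medians of Ewsr1 CKO over B6. Chromosome 14 lies apart at −0.42 in Prdm9 het, and at 0.03 in Ewsr1 CKO.

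Many of the sites at least 4-fold lower lay in a few windows of 10 Mb. Of the 142 sites, 84 (59.2%) were in 8 windows that held 3.41% of all sites. On chromosome 14 a long segment was mostly low: from 8025736 to 18909029, 47 of 52 consecutive sites were at least 2-fold lower and 2 at least 2-fold higher, with a median log2 ratio of −2.20 (quartiles −2.79 and −1.57), which is 4.59-fold lower. Summed over this segment, B6 had 4092 RPM, Ewsr1 CKO 4447 RPM and Prdm9 het 254 RPM. As shares of the autosomal sum of each column these were 0.574%, 0.581% and 0.186%. The next 10 sites had a median of −0.87, and the 363 sites after the segment, those 10 included, had −0.33. No site was listed before the segment, so its proximal edge is not seen.

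In 4 other windows, sites with almost no signal stood among others within 2-fold of B6 or above it. In the window from 30 to 40 Mb of chromosome 8, 14 of 45 sites were at least 4-fold lower, 5 were at least 2-fold higher, and the interquartile range was 2.90, against a median of 0.59 over the 240 windows with at least 15 sites. From 40 to 50 Mb of chromosome 9, 9 of 41 sites were at least 4-fold lower and 7 at least 2-fold higher, with a median of 0.26. From 30 to 40 Mb of chromosome 3, 11 of 45 sites were at least 4-fold lower, among them the Fat4 sites above, and a run of 7 consecutive low sites from 38116868 to 38957986 had a B6 sum of 2089 RPM and a Prdm9 het sum of 22.7 RPM. From 40 to 50 Mb of chromosome 14, 5 of 25 sites were at least 4-fold lower and 1 was at least 2-fold higher, with a median of −0.15 and an interquartile range of 2.03. Ewsr1 CKO over B6 had an interquartile range of 0.73, 0.40, 0.45 and 0.48 in these windows, in the order given. From 110 to 120 Mb of chromosome 7 the median was −0.90 and the interquartile range 1.22, with 23 of 53 sites at least 2-fold lower, 6 of them at least 4-fold, and 1 at least 2-fold higher. From 50 to 60 Mb of chromosome 14 the median was −0.56 and the interquartile range 0.76, with 9 of 35 sites at least 2-fold lower, 6 of them at least 4-fold, and 0 higher. Over the 8 windows together 18 of 298 sites (6.04%) were at least 2-fold higher, against 2.15% in the rest of the autosomes, and 4.01% of the B6 sum stood against 2.58% of the Prdm9 het sum. The 8 windows were picked for their low sites, so these values describe them and are no test.

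**Figure D5:**
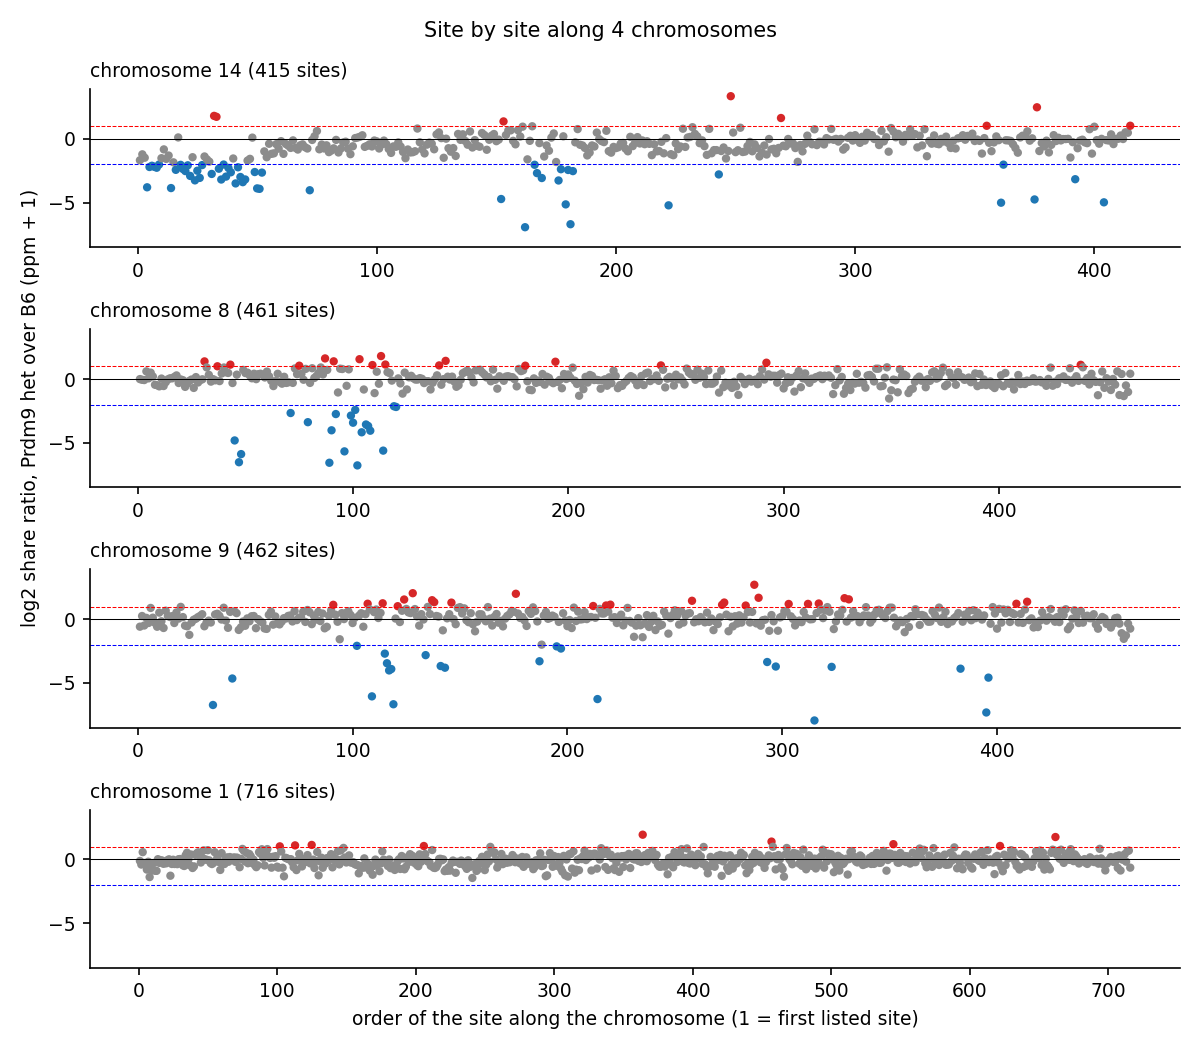
Log2 share ratio of Prdm9 het over B6 (y axis) for each site in its order along chromosomes 14, 8, 9 and 1 (x axis); blue points are at least 4-fold lower, red points at least 2-fold higher, and dashed lines mark these limits. Chromosome 14 opens with a block of low sites, chromosomes 8 and 9 show low sites interleaved with others, and chromosome 1 has 0 sites at least 4-fold lower.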

How the data were processed

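DMC1 ChIP-seq values for B6, Prdm9 het and Ewsr1 CKO and H3K4me3 and H3K36me3 values for Ewsr1 CKO were used as the authors deposited them, in RPM (reads per 1000000, per the file headers), with 1 column per group of 2 samples. BWA 0.5.10, Trimmomatic 0.32 and mm10 are named in the submitters' processing notes. The peak caller, the merging of samples and the RPM denominator are not given in the sources used here. Another 4 columns match no sample of this series and were not used.

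On autosomes every B6 value was a whole multiple of 0.129 RPM and every Ewsr1 CKO value of 0.246 RPM (100% to within 0.05 of a step). If a step is a read, B6 had at least 38 and a median of 368 reads per site. Prdm9 het had no such step: of its 60 lowest non-zero values, 35 were, to within 1e-09 RPM, sums of whole multiples of 0.000973 and of 0.00113 RPM, so its depth is unknown and it may have been summed in another way. No count model was fitted.

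Each column was divided by its autosomal sum. Log2 ratios used a pseudocount of 1 ppm, which understates changes of low sites. Medians have 95% order-statistic intervals across sites; sites are not replicates. Sites named were the 8 strongest in B6, the 8 highest and 8 lowest ratios among sites with a mean share at or above the median, and the 4 next strongest in Prdm9 het; others were chosen after their values were seen. The sites and lists were chosen with earlier results of these data known. H3K4me3 intervals listed more than once were averaged, and an overlap needed at least 1 bp. Coordinates are those of the deposited files, in mm10. Gene spans and starts are from RefSeq GRCm38.p6, the same assembly; exons and introns were not separated. Alternatives are in the closing section. The functions were tested on simulated data. Versions were matplotlib 3.10.9, pandas 2.3.3, scipy 1.17.1 and numpy 2.4.6 under Python 3.11.15.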

Additional observations from a re-analysis of the deposited data

How the results depend on the processing

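The median log2 ratio of −0.03 became 0.039 once sites with a mean share under its lower quartile were left out, −0.073 when columns were scaled without the strongest 5% of sites, 0.052 with X sites, −0.018 without chromosome 14 and −0.14 with Ewsr1 CKO as the denominator. The last of these, and those that leave out chromosome 14 or windows, were added after seeing the data. The 481 sites at least 2-fold lower were 230 with a pseudocount of 10 ppm, 191 without the weaker sites and 769 over Ewsr1 CKO. The 142 sites at least 4-fold lower were 76, 77 and, without chromosome 14, 90, and 58 without the 8 windows of 10 Mb that held most of them. The last 2 follow from leaving those sites out. The 200 sites at least 2-fold higher were 333 with X sites, which by construction lowers the Prdm9 het denominator relative to B6.

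By strength, the rise from the weakest group to group 8 (0.27) was 0.19 with a pseudocount of 10 ppm, 0.45 when ranked by Ewsr1 CKO and 0.60 when ranked by the mean. It reversed to −0.24 without the weaker sites, a filter that removes weak B6 sites only where Prdm9 het is also low. The fall from group 8 to the strongest (−0.19) was −0.24 with that filter and −0.092 with Ewsr1 CKO as denominator and for ranking. By H3K4me3, the difference between the highest and lowest groups (0.53) was 0.44 with a pseudocount of 10 ppm, 0.41 without the weaker sites and 0.96 over Ewsr1 CKO, and kept its sign in each setting tried. The other 46 recomputed main values stayed within their interval or, for counts, within 1.5 times.

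No paired analysis was possible because each group has a single value per site, without a replicate number, and for the same reason no sample was left out in turn. The unknown depth of the Prdm9 het column limits its low values, for which no sampling error was computed.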

Other observations

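Neighbouring hotspots were weakly alike in their ratio of Prdm9 het to B6. Adjacent sites had a Spearman's rho of 0.26 over 708 pairs up to 20 kb apart and 0.10 over 1303 pairs more than 500 kb apart, and these pairs share their libraries. For Ewsr1 CKO over B6 the same pairs had a rho of 0.37 and 0.45, so such likeness was not particular to Prdm9 het. Of 481 sites at least 2-fold lower in Prdm9 het, 323 had no such neighbour, and 100 stood in 19 runs of at least 3. The longest runs held 14 sites each, both in the low segment of chromosome 14.

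Sites within 5 Mb of the first listed site of a chromosome had a median log2 ratio of −0.26. Of them 27 of 341 were at least 4-fold lower, against 1.62% of all sites. Those within 5 Mb of the last had −0.15, with 2 of 341. The former include the first part of the low segment on chromosome 14, which is 10.9 Mb long. Around Prdm9 itself, on chromosome 17 at 15543072 to 15564374, the 16 sites within 5 Mb had a median of −0.23 (quartiles −0.45 and −0.14) and 0 were at least 4-fold lower. With 1.62% of all sites this low, a count of 0 among 16 says little. The median was −0.16 over the 23 sites within 10 Mb, with 0 at least 4-fold lower, −0.09 over the 55 within 20 Mb, with 3, and 0.03 over the 110 within 40 Mb, with 4. Over all of chromosome 17 it was 0.02. Interval width had little relation to the ratio (rho 0.07 across 8744 sites) although wide intervals were strong in B6 (rho 0.69).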
